A study of Mus musculus with 415 samples.

Results

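The regions described here lie at 3 genes of the retinoic acid pathway in differentiating mouse embryonic stem cells: Rara and Rarb, which encode retinoic acid receptors, and Cyp26a1, which encodes an enzyme that degrades retinoic acid. They were chosen by position, as all regions of a single-cell ATAC-seq table that overlapped 1 of 3 windows on the mouse build mm9: chr11:98780000-98850000 for Rara, chr14:17240000-17430000 for Rarb and chr19:37740000-37800000 for Cyp26a1. This gave 12 of the 23180 regions, with 7 in the Rara window, 4 in the Rarb window and 1 in the Cyp26a1 window. The table itself names no genes.

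Retinoic acid is a small molecule made from vitamin A that enters the nucleus and binds receptors of the RAR family. These pair with RXR receptors on DNA elements made of repeated half-sites, and the bound ligand turns them towards activation of nearby genes. Rarb and Cyp26a1 are classical direct targets with such elements in their promoters, and since the CYP26A1 enzyme oxidises retinoic acid to forms that are cleared, its induction lowers the signal that induced it. RARA is a broadly expressed receptor of the family.

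The cells came from the R1 line of mouse embryonic stem cells, which spent 48 hours as embryoid bodies in hanging drops before 4 days of retinoic acid, at 0.5 mM by the labels. ATAC-seq uses the Tn5 transposase, which inserts adapters where chromatin is open, and here it was run on single cells captured with a Fluidigm C1 instrument. Each sample is 1 cell, and all share this treatment and time point. There is no untreated group and no separate culture is named, so the series counts as 1 sample, its cells do not serve as replicates, and no p-values are given. Exact (Clopper-Pearson) 95% intervals on shares of cells cover the counting of cells only.

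The promoters of the 2 classical targets are shown because each holds a direct repeat of receptor half-sites, the element through which these receptors are known to act. The sequences are from RefSeq on GRCm38.p6, a later build than that of the regions, and they were not placed on mm9. They run from 250 bases before to 50 bases after the gene's start, on the gene's strand, and capitals mark the half-sites. The Rarb promoter is chr14:16575427-16575726 on the minus strand and the Cyp26a1 promoter is chr19:37697558-37697857 on the plus strand.
Rarb promoter: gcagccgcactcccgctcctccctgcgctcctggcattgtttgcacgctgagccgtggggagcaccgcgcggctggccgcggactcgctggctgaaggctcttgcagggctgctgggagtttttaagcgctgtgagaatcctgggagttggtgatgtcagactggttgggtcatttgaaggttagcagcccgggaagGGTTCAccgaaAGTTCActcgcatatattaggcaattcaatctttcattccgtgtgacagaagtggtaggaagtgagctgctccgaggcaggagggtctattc
Cyp26a1 promoter: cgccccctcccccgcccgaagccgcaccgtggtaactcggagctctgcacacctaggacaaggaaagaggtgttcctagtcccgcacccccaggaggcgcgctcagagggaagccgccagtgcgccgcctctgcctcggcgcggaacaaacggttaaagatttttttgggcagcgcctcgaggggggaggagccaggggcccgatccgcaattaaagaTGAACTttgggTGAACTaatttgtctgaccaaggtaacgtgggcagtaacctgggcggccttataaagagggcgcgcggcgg

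The search covered pairs of half-sites in the same orientation with 1, 2 or 5 bases between them, on both strands. The half-sites taken were AGGTCA as well as AGTTCA together with GGGTCA and also GGTTCA, in any combination. Each of these 2 promoters held 1 match, and both matches had the spacer of 5 bases. Written on the strand where they read as direct repeats, with the spacer in lower case, they are:
Rarb repeat: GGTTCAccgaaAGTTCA
Cyp26a1 repeat: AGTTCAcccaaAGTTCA
The Rarb repeat lay at positions -53 to -37 from the start, on the gene's own strand, and the Cyp26a1 repeat at -32 to -16, on the opposite strand. Both share AGTTCA as the second half-site. A repeat with this spacer occurred in 32 of 32851 promoters of the same length, or 0.0974%, and in 0.115% of 27025 genes. None of the 4 promoters listed for Rara held a match with any of the 3 spacers, and 0.588% of all promoters did. A match describes letters in these windows and is not evidence of binding.

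The table gives whole-number signal per region and cell, which was read as aligned bases and divided by the bases of 1 read pair to give fragments. Any signal above 0 counted as an open region. Cells differed in depth, from 756 to 12267 open regions with a median of 3928, and from 791 to 25069 fragments. No 2 cells held identical values. Over all regions the median share of cells with the region open was 14.5%, with quartiles of 9.88% and 23.6%, and every region was open in at least 31 cells. Rarer openings at these genes were not analysed here. Which regions of a window are promoters, introns or parts of a neighbouring gene was not assigned, because the gene table at hand is on GRCm38. In that table the nearest protein-coding genes with established names are Cdc6 and Gjd3 on the sides of Rara, Top2b and Thrb beside Rarb, and Cyp26c1 and Myof beside Cyp26a1. The annotated Rarb gene is longer than its window, so its remaining part was not covered.

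Rara, the broadly used receptor, had 3 regions with overlapping shares at the top and 4 that were open less often. In order along the chromosome these are called Rara-A to Rara-G here. The most often open was Rara-D, from 98820871 to 98821812, in 30.8% of cells (interval 26.4% to 35.5%). Rara-F, from 98830032 to 98831120, followed with 27.95% (23.7% to 32.5%), and Rara-B, from 98798549 to 98799627, with 27.2% (23.001% to 31.8%). These 3 intervals overlap, so their order is not established. Rara-G, from 98843107 to 98844058, was open in 19.5% of cells and Rara-E, from 98824428 to 98825328, in 18.8%. The remaining members, Rara-A (98793511 to 98793877) and Rara-C (98814703 to 98814910), were open in 9.64% and 8.43% of cells and were the narrowest, at 0.366 and 0.207 kb. With more than 1 fragment required, Rara-F was open in 13.5% of cells (10.4% to 17.2%), Rara-D in 10.8% (8.02% to 14.2%) and Rara-B in 6.27% (4.13% to 9.05%), and the intervals of Rara-F and Rara-B then do not overlap. The other 4 then lay between 1.45% for Rara-A and 4.10% for Rara-G. In all, 5 of the 7 Rara regions were open in a larger share of cells than the median region of the table. These 5 were 900 to 1088 bp wide, and the median region was 762 bp. Among regions within 1.2-fold of their own width, 80.5% had lower shares than Rara-D, 70.5% than Rara-F and 69.1% than Rara-B. For Rara-E and Rara-G it was 52.7% and 51.6%, close to the middle for their width.

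Rarb, the receptor whose own gene is a direct target, had 1 dominant region. Rarb-D (chr14:17407235-17408337) reached 41.2% of cells (interval 36.4% to 46.1%), the highest share among the 12 regions, and 5.28% of all regions reached that share. The other 3 were open far less often, at 11.1% for Rarb-A (17279963 to 17280531), 8.92% for Rarb-B (17386941 to 17387834) and 12.05% for Rarb-C (17398846 to 17400020). The interval of Rarb-D overlaps none of theirs, while theirs overlap each other. Rarb-B and Rarb-C were rarely open for their width. With more than 1 fragment required, Rarb-D was open in 18.1% of cells and the other 3 in 0.964% to 2.41%. Among regions within 1.2-fold of their own width, 8.85% had lower shares than Rarb-B and 18.2% had lower shares than Rarb-C, against 90.5% for Rarb-D.

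Cyp26a1, the degrading enzyme, had 1 region in its window, from 37772096 to 37772701. It was open in 53 cells or 12.8% (9.71% to 16.4%), a share that 57.9% of all regions reached. Its interval lies below that of Rarb-D and below those of Rara-B, Rara-D and Rara-F. At 605 bp it is narrower than these, and among regions of similar width 51.3% had lower shares. Over all 3 windows, 6 of the 12 regions were above the median share of the table, as were 49.6% of all regions.

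**Figure D1:**
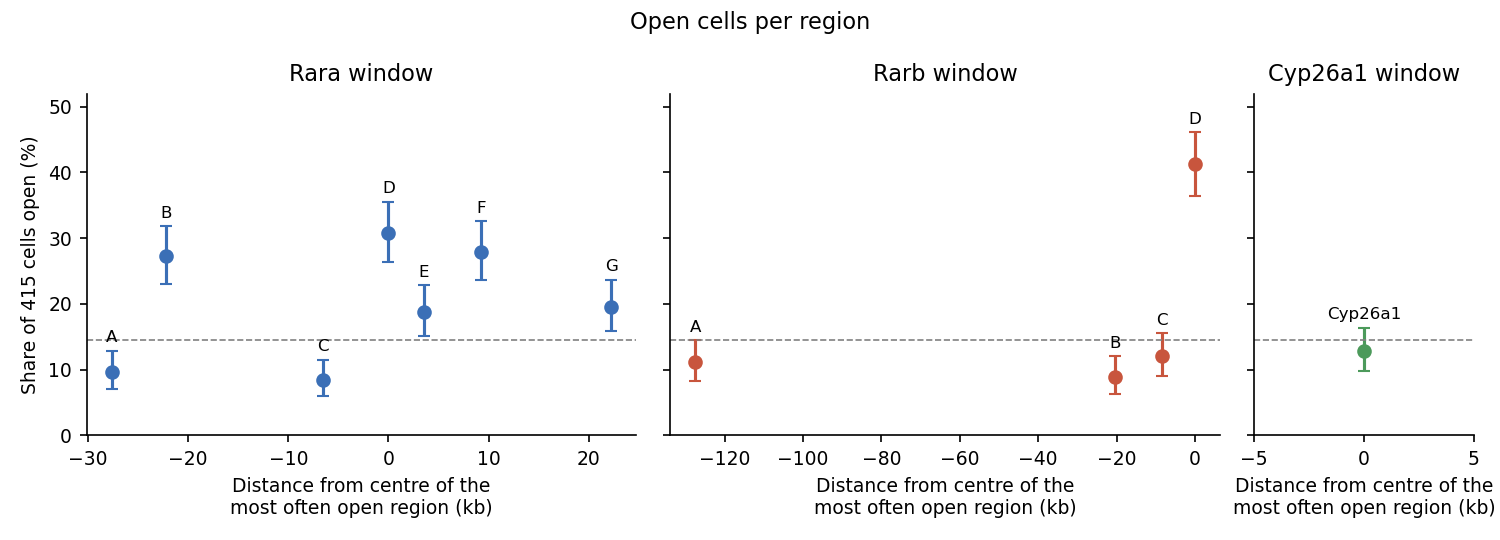
Share of cells in which each region was open (y axis, %), with exact 95% intervals, against its distance in kb from the centre of the most often open region of its window. Letters name the regions and the dashed line is the median of all regions, 14.5%. Rarb-D at 41.2% stands above every other point, and the 3 highest Rara points overlap.

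Signal per cell at every one of these regions was 0 at the lowest and at the median, since each was closed in most cells. The highest cell had 6.99 fragments at Rara-B, 5.95 at Rarb-D, 5.24 at Rara-F, 4.31 at Rara-D and 2.74 at the Cyp26a1 region. Where a region was open, the median was between 0.750 fragments at Rara-A and 1 fragment at most others. The lowest value above 0 ran from 0.00676 fragments at Rara-A to 0.5 at Rarb-C, so some open calls rest on very little signal. More than 1 fragment was seen in 48.3% of the open cells of Rara-F, 43.9% of those of Rarb-D, 35.2% of those of Rara-D and 32.1% of those of the Cyp26a1 region. The same holds for 29.5% of all open values in the table. Of the 12 regions, 5 lay above that share, Rara-C with 31.4% among them, and 7 lay below it. The 7 below ran up to 23.01% at Rara-B. At Rarb-C, a wide region of 1174 bp, it was 8%, or 4 of 50 cells, the lowest of the 12.

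Where the windows end decides which regions are members. Inside the Rara window, the outermost regions Rara-A and Rara-G lay 13.5 kb and 5.94 kb from its edges. Outside it, the nearest regions lay 10.6 kb before and 35.2 kb after it, and were open in 23.1% and 19.5% of cells. For Rarb, Rarb-A lay 39.96 kb and Rarb-D 21.7 kb inside the edges. The nearest region before that window lay 41.2 kb away with 47.95% of cells open, and the nearest after it lay 7.32 kb away with 9.16%. The Cyp26a1 region stood alone, with the nearest others 114.6 kb before the window at 12.8% and 64.5 kb after it at 10.8%.

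A cell had at least 1 open region in the Rara window in 71.3% of cases (66.7% to 75.6%), in the Rarb window in 55.9% (50.98% to 60.7%), and in the Cyp26a1 window in 12.8%. The regions of the windows sum to 5531, 3737 and 605 bp, so how often a locus was open and how much of it was measured cannot be told apart in these shares. In the shallowest of 4 equal sets of cells by depth, with a median of 1770.5 open regions, they were 40.4%, 29.8% and 2.88%. In the deepest set, with a median of 6863.5, they were 96.2%, 76.9% and 20.2%. Depth alone, fitted as a rate per locus times a rate per cell, gave 43.2%, 28.9% and 4.82% in the shallowest set and 94.1%, 82.7% and 23.6% in the deepest. All 6 of these expected shares lie within the intervals of the observed ones.

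**Figure D2:**
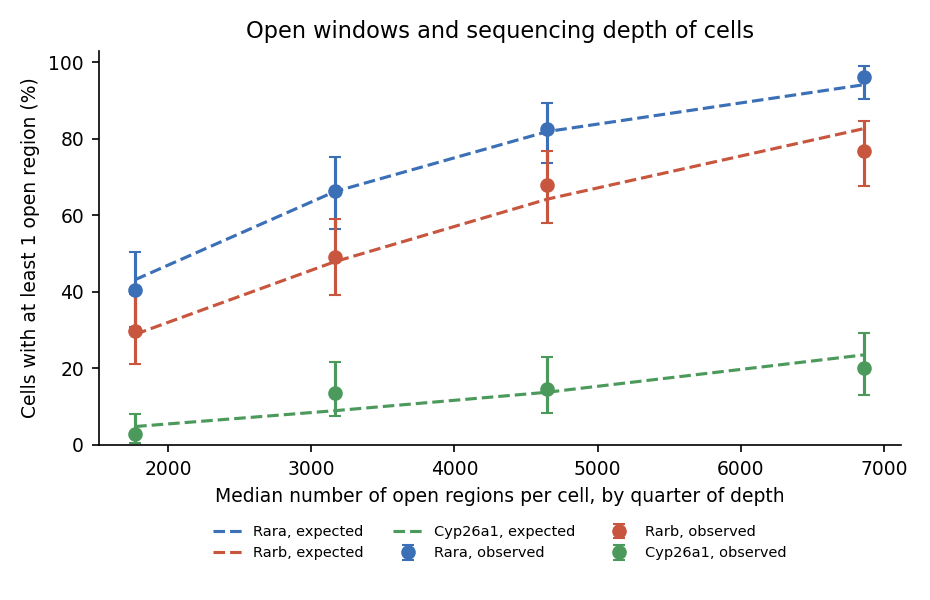
Share of cells with at least 1 open region in each window (y axis, %) in 4 sets of cells by depth, placed at the set's median number of open regions (x axis). Points are observed shares with exact 95% intervals, dashed lines the shares expected from depth, and the points follow the lines for Rara, Rarb and Cyp26a1.

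Co-opening asks whether cells open at a receptor locus are also the cells open at the locus of the degrading enzyme. At the level of whole windows, with any signal counted as open, the number of such cells was close to that given by depth. Rara and Cyp26a1 were both open in 44 cells, where depth gave 43.5, a ratio of 1.01 (interval 0.745 to 1.33). Rarb and Cyp26a1 were both open in 35 cells, where depth gave 35.996, a ratio of 0.972 (interval 0.685 to 1.33). The receptors Rara and Rarb were both open in 43.1% of cells, where depth gave 43.96%, a ratio of 0.981 (interval 0.871 to 1.09). The intervals with Cyp26a1 are wide because they let the number of cells open at each window vary, and the one with Rara runs past the highest possible ratio. The narrower intervals among cells open at Cyp26a1, in the next paragraph, still hold moderate departures from depth in either direction. Since the windows were already open in many cells, these ratios could not have passed 1.22, 1.47 and 1.27 in the same order, which leaves little room for a higher value with Rara. With more than 1 fragment required, fewer cells were open and the ratios with Cyp26a1 were lower. Rara and Cyp26a1 were then both open in 4 cells where 8.81 were expected, a ratio of 0.454 (interval 0.124 to 1.15). Rarb and Cyp26a1 were both open in 2 cells where 6.42 were expected, a ratio of 0.311 (interval 0.0378 to 1.12). Both of these intervals include 1, but they also let the number of cells open at each window vary, which the expected numbers hold fixed. They are therefore too wide to tell whether these ratios lie below 1. Only 17 cells were open at Cyp26a1 in this setting.

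Before the correction for depth, the receptor windows were open more often in cells open at Cyp26a1. Rara was open in 83.02% of the 53 cells open at Cyp26a1 (70.2% to 91.9%) and in 69.6% of the other cells (64.6% to 74.3%). The cells open at Cyp26a1 were deeper, with a median of 4533 open regions against 3928 over all cells. At those depths 81.8% and 69.8% were expected. For Rarb the observed shares were 66.04% and 54.4%, and the expected ones 67.1% and 54.3%. The interval for Rarb in the cells open at Cyp26a1 was 51.7% to 78.5%. Rara was open in 77.2% of the cells open at Rarb (71.2% to 82.4%), where 78.1% was expected, and in 63.9% of those closed at Rarb (56.5% to 70.9%), where 62.7% was expected. All 3 windows were open in 31 cells, where 31.2 were expected. Cyp26a1 was open with neither receptor window in 5 cells, where 4.68 were expected, and no window was open in 61 cells, where 64.8 were expected.

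**Figure D3:**
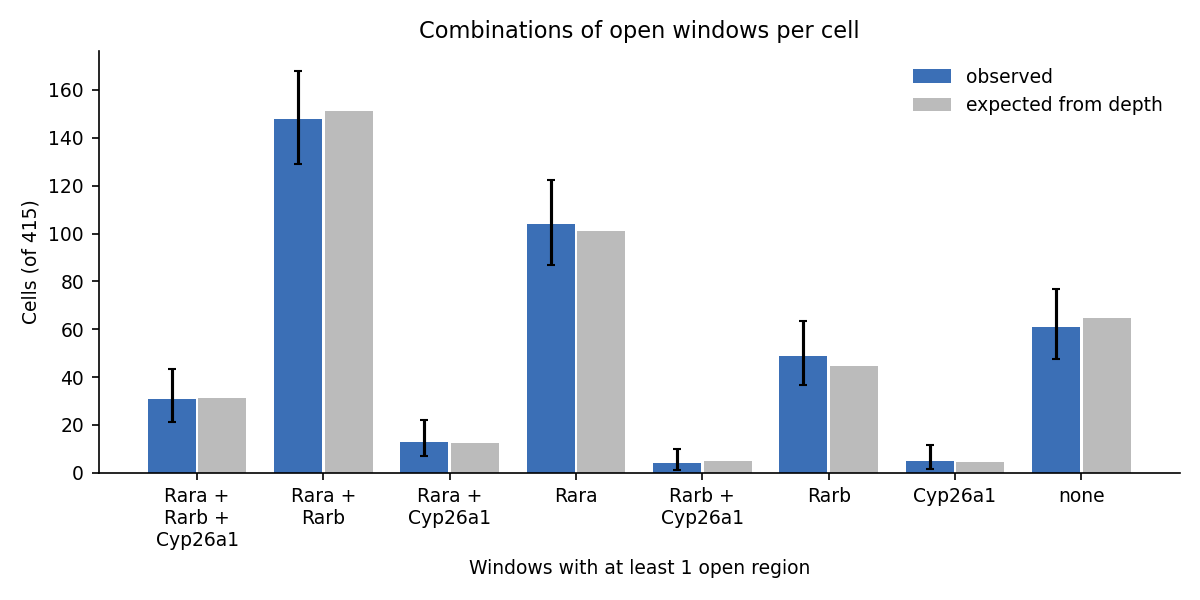
Number of cells (y axis) with each combination of open windows, observed (blue, with exact 95% intervals) and expected from depth alone (grey). Every expected value lies within the interval of the observed one, including the 31 cells with all 3 windows open.

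Taken region by region, there are 39 pairs between the 3 windows. Of these, 1 was open in the same cells at least 1.5 times as often as depth gave, or 2.56%, against 3.76% of all 3390705 pairs of regions on different chromosomes among 11, 14 and 19. That pair was Rara-C with Rarb-B, both open in 9 cells where 4.40 were expected, a ratio of 2.05 (0.941 to 3.85). The median ratio was 0.996 over the 39 pairs and 0.993 over the background, and 18 pairs, or 46.2%, lay above 1, against 48.4%. The Cyp26a1 region paired with the 7 Rara regions gave ratios from 0.563 with Rara-A to 1.44 with Rara-C, and with the 4 Rarb regions from 0.794 with Rarb-C to 1.06 with Rarb-B. None of these 11 reached 1.5, which 4.36% of the regions outside chromosome 19 did when paired with the Cyp26a1 region. Between the most often open regions, Rara-D and Rarb-D, 70 cells were open at both and 64.97 were expected.

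**Figure D4:**
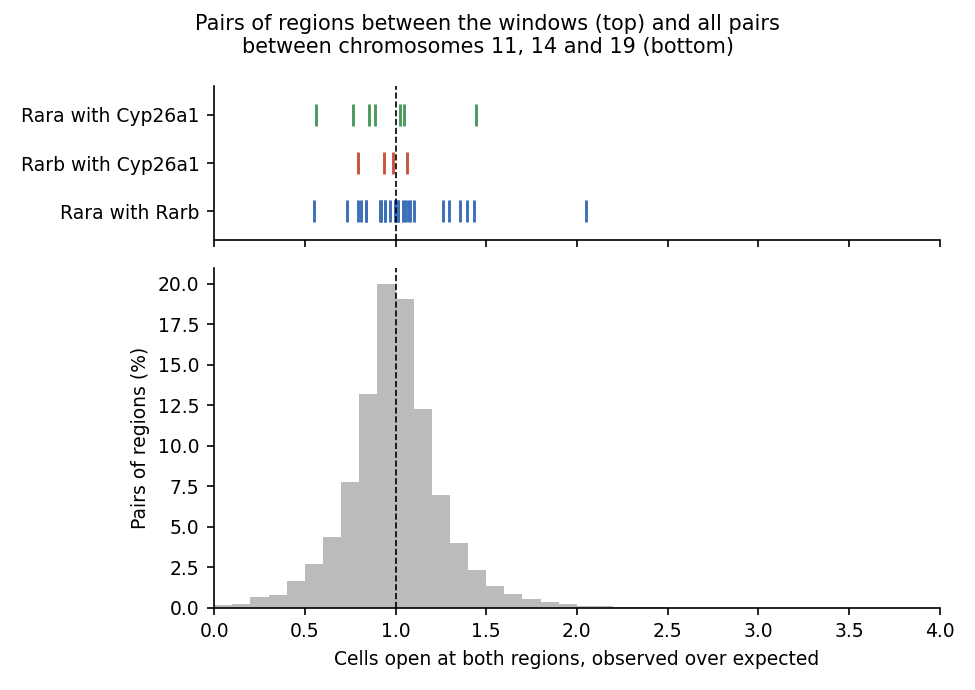
Number of cells open at both regions of a pair over the number expected from depth (x axis). Upper panel, the 39 pairs between the windows, 1 mark each; lower panel, the percentage of all pairs of regions on different chromosomes among 11, 14 and 19 (y axis), with values above 4 in the last bar. The member pairs spread around 1 as the background does, with Rara-C and Rarb-B at 2.05 farthest to the right.

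Taken at the median, pairs of regions of the same window did not open in the same cells more often than depth gave. Over the 21 pairs of Rara regions, which lie 2.62 to 49.2 kb apart, the median correlation of depth-corrected values over all cells was -0.0111, and 10 pairs were above 0. All 2448 pairs at these distances on chromosome 11 had a median of 0.0206, and 64.2% were above 0. Over the 6 Rarb pairs the median was -0.0163 with 1 above 0, against 0.0161 and 60.5% for 1452 pairs at like distances on chromosome 14. At least 2 Rara regions were open in 41.9% of cells, where 41.2% was expected if regions open independently at a given depth, and at least 2 Rarb regions in 61 cells, where 65.1 were expected. No cell had all 7 Rara regions open, and 2 cells had all 4 Rarb regions open. Values of this size over sparse data are a description, and the pairs share cells and regions.

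One pair within Rara departed from this. Rara-C and Rara-F, 15.1 kb apart, were both open in 4 cells where 13.1 were expected, a ratio of 0.306 (0.0836 to 0.778). Their correlation of -0.181 was the lowest of the 2448 pairs at these distances on chromosome 11, of which it makes up 0.0408%. At the other end were Rara-A and Rara-E with 0.115, a value that 11.1% of those pairs reached. Rara-B and Rara-F had 49 cells open at both where 40.5 were expected, and Rara-D and Rara-F had 57 where 45.5 were expected. Rara-C, the narrowest member, shared cells with Rarb-B and Cyp26a1 at the highest ratios and with Rara-F at the lowest. The pair of Rara-C and Rara-F was picked for its value after all pairs were seen.

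The cells were also divided into 3 clusters from the regions on the 16 autosomes other than 11, 14 and 19, so that none of the 12 regions took part. Cluster 1 held 45.7% of the clustered cells, cluster 2 held 27.5% and cluster 3 held 26.8%, with medians of 3628, 4750.5 and 3709 open regions per cell. The clusters carry no cell type name, because the table gives no marker genes. As all values come from the same cells, shares per cluster are a description with no test. Ratios between a cluster and the other cells were scaled by the share that depth gives.

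As whole windows, the receptors stayed near the expected share in each cluster, which is a coarse measure because the windows of 7 and 4 regions were open in most cells. In cluster 3 the ratio could not have passed 1.39 for Rara or 1.80 for Rarb, against 8.27 for the single region at Cyp26a1, so the 3 windows are not compared with each other. The Rara window was open at 0.936 times the expected share in cluster 3, 1.02 times in cluster 2 and 1.03 times in cluster 1. The Rarb window was open at 1.10, 0.951 and 0.974 times the expected share in the same order. The Cyp26a1 window was open at 2.01, 0.843 and 0.505 times the expected share in the same order.

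At the Cyp26a1 region, 27 cells of cluster 3 were open, or 24.3% (interval 16.7% to 33.4%), against 8.58% (5.68% to 12.3%) of the other cells, and the depth-scaled ratio was 3.06. In cluster 1 it was open in 11 cells, or 5.82% (interval 2.94% to 10.2%), against 18.7% (13.8% to 24.4%) of the other cells, a scaled ratio of 0.375. Neither pair of intervals overlaps. Of the 3342 regions on chromosomes 11, 14 and 19, 7.002% had a ratio of at least 3.06 in cluster 3. Within 4 consecutive sets of the cells' title numbers, whose meaning the labels do not give, the ratio for cluster 3 was 2.78, 4.21, 4.49 and 2.54. These values rest on 8, 9, 5 and 5 open cells of cluster 3.

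Rara-C, the narrowest of the 12 regions, was open almost wholly in cluster 3. Of its 35 open cells, 30 belonged to cluster 3, 4 to cluster 1 and 1 to cluster 2. It was open in 27.03% (interval 19.04% to 36.3%) of cluster 3, against 1.65% (0.538% to 3.81%) of the other cells, a depth-scaled ratio of 17.8. Only 10 of the 3342 regions on the 3 chromosomes, Rara-C included, had a ratio this high in cluster 3, or 0.299%. Every region of the table was open in at least 31 cells, and the open cells of Rara-C outside cluster 3 alone would fall below that count. The background was not matched for share, so the ratio and its rank are a description only. In the 4 sets of title numbers, 14, 7, 4 and 5 of the open cells were in cluster 3 and 2, 0, 3 and 0 outside it.

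Rara-F, the wide region 15.1 kb farther along the same gene window, showed the reverse order. It was open in 12 cells of cluster 3, or 10.8% (interval 5.71% to 18.1%), against 34.3% (28.99% to 39.97%) of the other cells, a scaled ratio of 0.332, and 11.01% of the background regions were as low. In cluster 2 it was open in 56 cells, or 49.1% (interval 39.6% to 58.7%), against 20% (15.6% to 24.98%) of the other cells, a scaled ratio of 1.92. The ratio for cluster 3 was below 1 in each set of title numbers, at 0.382, 0.146, 0.586 and 0.365. These values rest on only 5, 2, 3 and 2 open cells of cluster 3, and the sets are not replicates. Rara-C and Rara-F lay at opposite ends of the Rara regions' ratios in cluster 3, while the window as a whole stayed near the expected share in every cluster.

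Among the Rarb regions, Rarb-B stood highest in cluster 3. It was open in 18 cells, or 16.2% (interval 9.90% to 24.4%), against 6.27% (3.82% to 9.62%) of the other cells, a scaled ratio of 2.81 that 7.45% of the background regions reached. In the sets of title numbers its ratio was 1.5, 1.80 and 4.68 in sets 1, 3 and 4, from 6, 2 and 5 open cells of cluster 3. In set 2 all 5 open cells were in cluster 3. Rarb-C had 1.97, and Rarb-D, the region open in most cells, had 0.833 in cluster 3, 1.22 in cluster 2 and 0.957 in cluster 1. With more than 1 fragment required, Rarb-C was at 1.11 and Rarb-D at 1.06 in cluster 3, so the direction of Rarb-D turned. In cluster 3 the share over the expected one could not have passed 2.48 for Rarb-D, 11.9 for Rarb-B or 8.78 for Rarb-C. The spread of their ratios across clusters is therefore not compared.

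Counted over the 12 regions, 3 were at least 2-fold higher in cluster 3 after depth scaling (Rara-C, Rarb-B and Cyp26a1), or 25%, where 10.5% of the regions on these chromosomes were. Without its cells in cluster 3, each of the 3 would be open in fewer than 31 cells, the lowest count of any region in the table. These 3 stayed at least 2-fold higher with 2 or 4 clusters, without depth correction, with more than 1 fragment required and in the deeper cells. With 2 or 4 clusters the matching cluster held nearly the same cells, so these settings are close to a repeat of the first. Cells in both over cells in either were 0.982 with 2 clusters and 0.884 with 4. Rarb-C joined these 3 regions at 2.24 with 2 clusters. Without its 20 open cells in cluster 3, it would also be open in fewer than 31 cells. With more than 1 fragment required, Rarb-B was open in only 5 cells. In that setting the highest Cyp26a1 share among clusters was 2.02 times the expected one, with an interval of 0.886 to 3.84 that includes 1. In cluster 3, 2 were at least 2-fold lower (Rara-A at 0.423 and Rara-F), where 20% of the background was. Rara-A rests on 5 open cells there, and its ratio was 0.664 with more than 1 fragment and 0.563 in cells at or above the median depth, which ends the call. Rara-D was at 0.494 with more than 1 fragment, against 0.696 with any signal, and Rara-F stayed at least 2-fold lower under all 5 of these settings. In cluster 1, Rara-A was higher at 2.16, where 6.61% of the background was, and Rara-C and Cyp26a1 were lower, where 10.4% was. Without its 24 open cells in cluster 1, Rara-A would also be open in fewer than 31 cells. In cluster 2 no region was higher, where 7.54% was, and Rara-C, Rarb-A and Rarb-C were lower, where 8.92% was. The lower values of Rarb-A and Rarb-C in cluster 2 rest on 9 open cells each. With 12 regions these counts describe the members and do not separate them from the background.

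**Figure D5:**
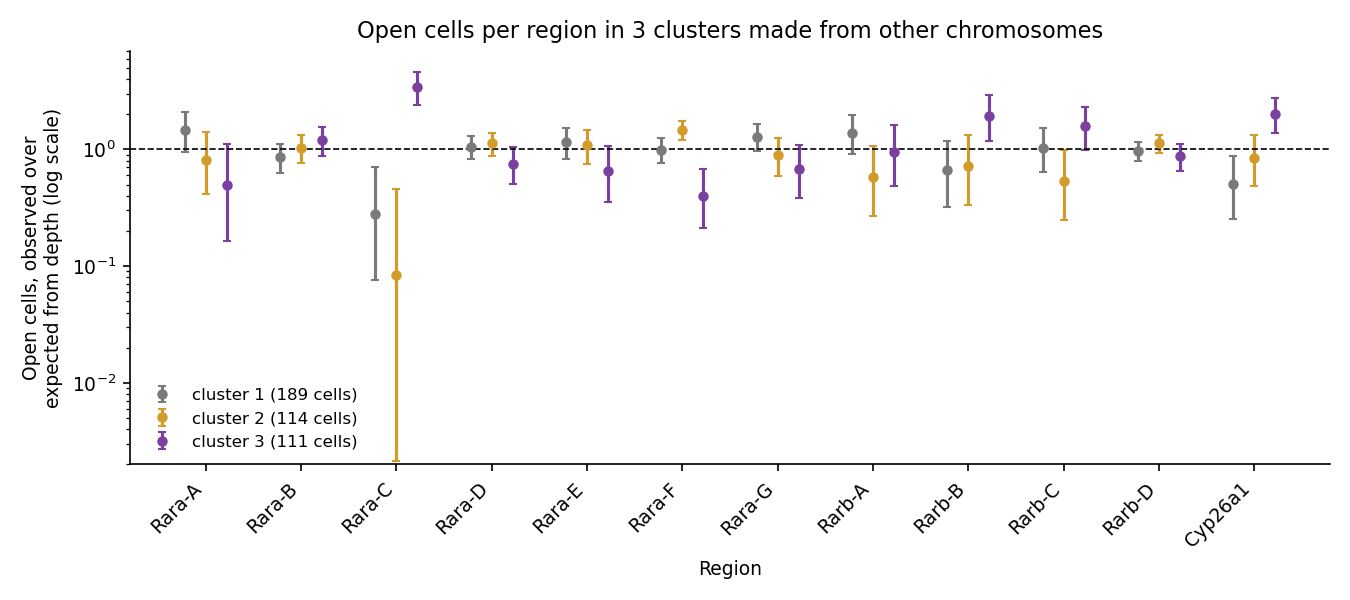
Share of open cells over the share expected from depth (y axis, log scale) for each of the 12 regions (x axis) in clusters 1, 2 and 3, which were made from other chromosomes. Bars are exact 95% intervals of the observed share over the expected one. Rara-C spreads widest, at 3.40 in cluster 3 and 0.0845 in cluster 2, and Rara-F and Cyp26a1 differ in opposite directions.

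Expected numbers were also fitted within each cluster, an alternative chosen after seeing the data. Because Rara-C, Rarb-B and Cyp26a1 were picked as higher in cluster 3, this fit raises the number expected for pairs of them by construction, and the values are a description only. Rara-C and Rarb-B were both open in 9 cells, of which 8 were in cluster 3, and the ratio within clusters was 1.41, with 6.36 expected, in place of 2.05. Rara-C and Cyp26a1 were both open in 9 cells, all in cluster 3, and the ratio was 0.967, with 9.30 expected, in place of 1.44 (0.664 to 2.72). Rarb-B and Cyp26a1 were both open in 7 cells, of which 5 were in cluster 3, and the ratio was 0.892, with 7.85 expected, in place of 1.06 (0.429 to 2.17). For Rara-C and Rara-F, which differ in opposite directions, the fit lowers the expected number by construction, to 6.02, and the ratio was 0.664 in place of 0.306. For whole windows the fit left the ratios at 1.04 for Rara with Cyp26a1, 0.963 for Rarb with Cyp26a1 and 0.984 for Rara with Rarb.

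Elsewhere in the table, the regions most like each window were sought by the correlation of depth-corrected values over all cells, on other chromosomes than the window's own. For Cyp26a1 the highest value was 0.242, for chr12:77559926-77560407, with 16 cells open at both where 7.27 were expected. Next came chr13:60773585-60774497, also at 0.242 with 17 cells and 8.65 expected, and chr1:57034052-57034234 at 0.232 with 15 cells and 6.23 expected. For Rara the highest were 0.195 at chr5:34530132-34530930, 0.162 at chr10:75700163-75700955 and 0.161 at chr2:84574114-84574823. For Rarb they were 0.186 at chr2:169151422-169152176, 0.181 at chr10:85805059-85805896 and 0.173 at chr2:119661755-119662329. None of the 12 regions was among them. These are the extremes of 22457, 21404 and 22337 correlations for Cyp26a1, Rara and Rarb, whose 99th percentiles were 0.147, 0.111 and 0.116, and such weak values in sparse data single out no partner.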

How the data were processed

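Single-cell ATAC-seq signal was analysed for 415 cells of 1 group. The authors deposited signal per region and cell, as whole numbers with no scaling between cells. Of the values above 0, 37.6% equal 148 and 51.1% are multiples of 74, which was read as bases of paired 74-base reads, and this reading rests on the values alone. Counts were not assumed. The submitters' processing notes name MACS2 and mm9. The sources used here do not state the aligner, the handling of duplicates or how regions were chosen. Libraries had 13 further PCR cycles, per the labels' protocols.

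Regions and lists were chosen with earlier results of these data known. Every member region is reported, with the 3 most alike regions per window. The expected probability of an open region was 1 - exp(-region rate x cell rate), fitted to the row and column sums of the open calls, with numpy 2.4.6 and scipy 1.17.1, and tested on simulated data. A window counted as open with at least 1 open region. Clusters used term frequency weighting, singular vectors 2 to 10 and k-means (scikit-learn 1.9.0, 50 starts) on 19339 regions in the 414 cells with at least 1000 fragments. No doublet caller was run. Alternatives changed the definition of open, the cells, the depth correction, the regions and the number of clusters. Other genes of the pathway were planned and not analysed here, because they need an annotation on mm9.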

Additional observations from a re-analysis of the deposited data

How the results depend on the processing

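The windows' shares depend on the definition of open and on depth. With more than 1 fragment required, the Rara, Rarb and Cyp26a1 windows were open in 31.1%, 20.96% and 4.10% of cells. With cells below the median depth left out they were open in 89.4%, 72.1% and 17.3%. Co-opening stayed within the counting interval for all 3 pairs under 7 of the 8 alternatives. That interval is wide, since it lets the number of cells open at each window vary. The exception, requiring more than 1 fragment, gave 0.454 (0.124 to 1.15) for Rara with Cyp26a1 and 0.311 (0.0378 to 1.12) for Rarb with Cyp26a1, and 1.002 for Rara with Rarb. The cause was not tested. Without depth correction the 3 ratios were 1.16, 1.18 and 1.08. Thinning cells to 1500 open regions left out 33 cells and gave 0.875, 0.983 and 0.954. The highest value of the Rara window among clusters was 1.14 with more than 1 fragment, and the median correlation among Rarb regions was -0.00437. For Rara-C the ratio for cluster 3 ran from 15.8 with 4 clusters to 33.1 with more than 1 fragment, and for Cyp26a1 from 2.83 without depth correction to 3.44 with 2 clusters. For Rarb-B it was 13.3 with more than 1 fragment, where 5 cells were open. In that setting it was 1.37 for Rara-G, against 0.610 with any signal, 1.06 for Rarb-D, against 0.833, and 1.11 for Rarb-C, against 1.97. Depth limits all values, since a closed region may be one that was not sampled. No paired analysis was possible because all cells form 1 group.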

Other observations

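Across the 4 consecutive sets of title numbers the Rarb window was open in 55.8%, 57.7%, 55.3% and 54.8% of cells, and the Cyp26a1 window in 12.5%, 12.5%, 10.7% and 15.4%. Rara-C was open in 15.4%, 6.73%, 6.80% and 4.81% of cells, while the sets held 40, 40, 16 and 15 cells of cluster 3. These values were taken after seeing the data, and the part of the title numbers in them was not tested.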
